A study of Saccharomyces cerevisiae with 8 samples.

Results

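The mitochondrial ribosome is built in the mitochondrion from proteins that are almost all encoded in the nucleus, made in the cytosol and imported. It translates the few messages of the mitochondrial genome, most of which specify membrane subunits of the respiratory chain and of ATP synthase. In *Saccharomyces cerevisiae*, glucose represses respiration, and the genes for mitochondrial ribosomal proteins and those for cytosolic ribosomal proteins are separate sets. The genes described here were defined by a name rule, as those whose standard name is MRPL (large subunit), MRPS or RSM (small subunit) followed by a number. The set was proposed with earlier results of these data known. They are 54 of the 6103 genes in the table, 34 for the large subunit and 20 for the small subunit (9 MRPS and 11 RSM), and all 54 genes of the R64 annotation with such a name were found.

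RNA was sequenced from ScY01a, a *MATa* haploid of an industrial strain that had been evolved for thermotolerance, and from its *sin3∆*, *srb2∆* and *mig1∆* derivatives, in each of which KanMX replaced the open reading frame. Sin3p is part of histone deacetylase complexes, Srb2p belongs to the head of Mediator, and Mig1p represses genes in the presence of glucose. All 4 strains were grown at 30°C in YP medium with 200 g/L glucose and harvested after 10 h, and each has 2 libraries, 8 in all. The labels give shaking at 200 rpm, which differs from the study's methods. Whether the 2 libraries of a strain came from separate cultures at 30°C was not stated, so p-values measure only the spread between libraries. Each deletion is 1 strain, so the effect of a deletion and any other difference of that strain cannot be told apart.

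The deposited values are RPKM, a level per kilobase of gene, scaled between libraries by the authors. They are relative levels, so less RNA of one kind per cell and more of another cannot be told apart. Most values of low genes lay near whole multiples of a step fitted to them, from which fragments per gene were estimated. The 34 members of at least 500 bp had a median of 303 to 914 estimated fragments per library, and no fewer than 128. *SIN3*, *SRB2* and *MIG1* were listed at 0 in both libraries of their own deletion strain and at 17.1 RPKM or above in all others. The sum over 6 **a**-cell marker genes was 803 and 920 RPKM in the wild type, with 288 and 260 for *sin3∆*, 626 and 538 for *srb2∆*, and 794 and 758 for *mig1∆*, although *MFA1* and *MFA2*, which are short genes, were listed at 0 in every library. The sum over 4 alpha-cell markers stayed between 27.5 and 43.5 RPKM. The genes of the mitochondrial genome were not analysed here.

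The members lay on 14 of the 16 nuclear chromosomes, 28 of them on the plus strand, with coding lengths of 213 to 1887 bp (median 706.5 bp). *MRPL44* alone had 2 coding exons. *MRPL19* and *MRPL51* overlap another annotated gene, and because strand-specific counting was not stated, their reads could not be separated from those of the partner. No member had another match of at least 85% identity over 100 bases in the genome. By the systematic names in the annotation, 24 members belong to protein families shared by all ribosomes (14 large, 10 small), 9 to families shared with bacteria (7 large, 2 small) and 20 to families found in mitochondria (13 large, 7 small). *RSM22* has no such name: the annotation describes it as a tRNA methyltransferase, and it is kept because its name meets the rule.

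What the members share, and the rule did not use, is a sequence after the stop codon. Puf3p is an RNA-binding protein that binds UGUA-containing elements in the 3′ untranslated regions of messages for mitochondrial proteins. The letters TGTANATA, on the coding strand, occurred within 200 bases after the stop codon in 53 of 54 members (98.1%), in all 34 large subunit genes and in 19 of 20 small subunit genes. They occurred in 844 of 6007 genes overall (14.1%) and in 6 of 138 cytosolic ribosomal protein genes (4.3%). The single member without them was *RSM22*. The stricter form TGTAAATA was found in 29 members (53.7%), against 4.3% of all genes and 0.7% of cytosolic ribosomal protein genes. Asking also for a C at the second base before the element, a form added once the data had been seen, left 43 members (79.6%), against 4.2% of all genes. Matches to both of these forms are also matches to TGTANATA, and a match describes the letters and is not evidence of binding.

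The 53 genes held 66 elements, with 1 in 41 genes, 2 in 11 genes and 3 in *RSM19*. The first base of the element lay 8 to 165 bases after the stop codon (median 56.5), and 59 of 66 began within 100 bases. The following lines show the element nearest the stop codon for the members whose levels the results below turn on, from R64, 5′ to 3′ on the coding strand, with the 8 bases of the element in capitals.

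*MRPL32*, chrIII:119209-119232, plus strand: cttaagccTGTATATAgaaactta
*MRPL44*, chrXIII:720857-720880, minus strand: agcaagccTGTAAATAatatatat
*MRPL35*, chrIV:1111713-1111736, plus strand: tagtatccTGTACATAtaaaataa
*MRPL4*, chrXII:1015470-1015493, plus strand: ctctctccTGTAAATAtatatata
*MRPS8*, chrXIII:572764-572787, plus strand: acggaccaTGTAAATAataatatt
*RSM19*, chrXIV:695027-695050, minus strand: ggatctagTGTATATAgatttcta
*MRPS12*, chrXIV:694272-694295, minus strand: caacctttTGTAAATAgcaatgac
*MRPS35*, chrVII:830215-830238, plus strand: ttattactTGTACATAaaatattc

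In these lines, *MRPL44*, *MRPL4*, *MRPS8* and *MRPS12* carry the same 8 letters, TGTAAATA. *MRPL32* and *RSM19* carry TGTATATA there, and *MRPL35* and *MRPS35* carry TGTACATA. The upstream C of the longer form is present in all of these lines except those of *RSM19* and *MRPS12*.

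**Figure D1:**
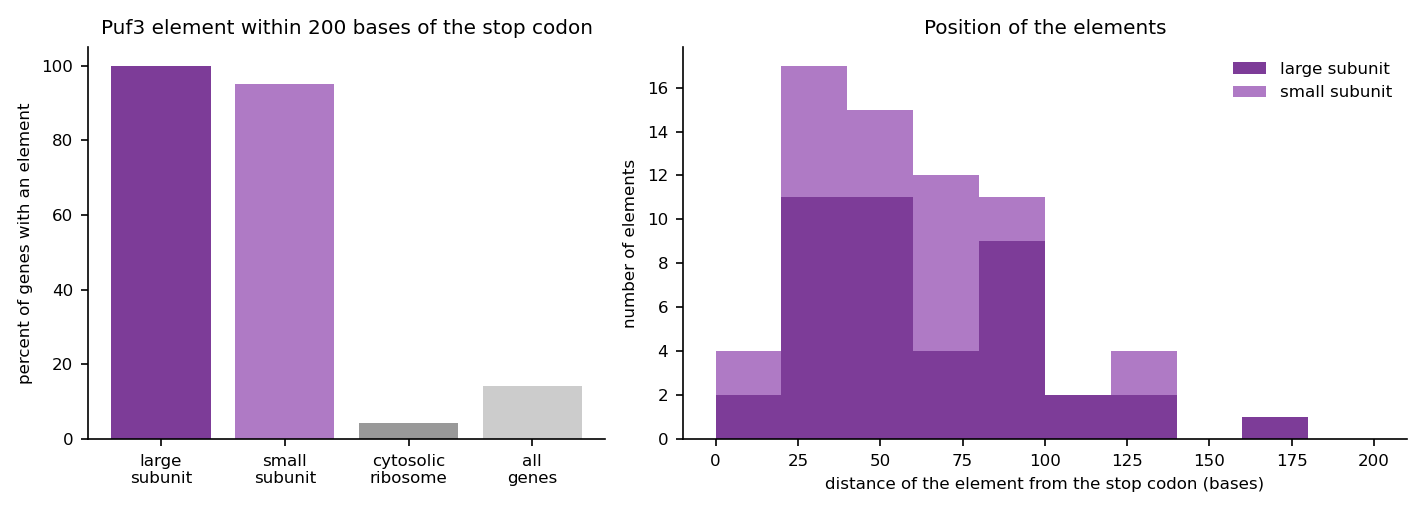
The left panel shows the percent of genes with a Puf3 element (the 8-letter form with 1 free position) within 200 bases after the stop codon, for the 34 large and 20 small subunit genes, 138 cytosolic ribosomal protein genes and all 6007 genes. The right panel counts the 66 elements of the members by the distance of their first base from the stop codon in bins of 20 bases, and 59 of them fall within 100 bases.

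Motifs in the 250 bases before to 50 after the start codon, searched on both strands, set the members less apart. CCAAT, the core of the Hap2/3/4/5 site, was found in 40.7% of members and 43.3% of all genes. AATTTT, a rapid growth element, was found in 35.2% of members, 51.7% of all genes and 55.8% of cytosolic ribosomal protein genes. GATGAG was found in 18.5% of members and 20.4% of all genes, GGCGGC in 1.9% and 5.1%, and the Mig1 core CTGGGG or CCGGGG in 5.6% and 5.2%. Each motif was counted on its own, whether or not it overlapped another.

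In the wild type, the mean level of the members ran from 23.3 RPKM (*RSM22*) to 869 RPKM (*RSM19*), with a median of 76.3 RPKM. The 10 highest members, all between 213 and 492 bp long, lay at 173 RPKM or above. Across the 54 members, level fell with coding length (Spearman's rho of -0.72 in the wild type, a description across genes that share libraries). For a short gene, few start positions fit a fragment, and its level per length is less certain. The 34 members of at least 500 bp covered a narrower range, 23.3 to 150.2 RPKM, with medians of 69.5 RPKM for 20 large subunit genes and 61.5 RPKM for 14 small subunit genes.

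*RSM19* (YNR037C, chrXIV:695052-695327), the uS19 protein of the small subunit head, was the highest member in the wild type, *sin3∆* and *mig1∆*. It lay at 667 and 1072 RPKM in the wild type, with 313 and 331 for *sin3∆*, 305 and 298 for *srb2∆*, and 746 and 847 for *mig1∆*. The *sin3∆* and *srb2∆* libraries were all below both wild-type libraries, and the *mig1∆* libraries lay between the 2 wild-type values. The gene made up 20.2% to 33.2% of the summed small subunit RPKM of a library, so that sums over the small subunit follow it. *MRPS12* (YNR036C, uS12, a protein of the decoding centre) is the next gene downstream on the same strand, 229 bases away, and the only member adjacent to another. It was the second highest of the small subunit, at 299 and 448 RPKM in the wild type, with 164 and 154 for *sin3∆*, 165 and 174 for *srb2∆*, and 376 and 411 for *mig1∆*.

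*MRPS16* (bS16) followed at 317 ± 38.7 RPKM in the wild type (SD, n = 2). In the large subunit, the highest were *MRPL39* (bL33) at 439 ± 133, *MRPL44* (mL53) at 355 ± 43.7 and *MRPL51* (mL43) at 284 RPKM (249 and 320 in the 2 libraries). The lowest were *MRPL25* (mL59) at 40.2 ± 4.58, *MRPL1* (uL1) at 45.5 ± 4.09 and *MRPL32* (bL32) at 46.0 ± 9.84 RPKM in the large subunit. In the small subunit they were *RSM22* at 23.3 ± 1.55, *MRPS5* (uS5) at 43.1 ± 3.75 and *RSM28* (mS46) at 52.0 ± 7.06 RPKM. Neighbours in this order were mostly not distinct. In 50 of 53 neighbouring pairs of the wild-type order the libraries overlapped, and in 36 to 39 of 53 pairs in the 3 deletion strains.

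**Figure D2:**
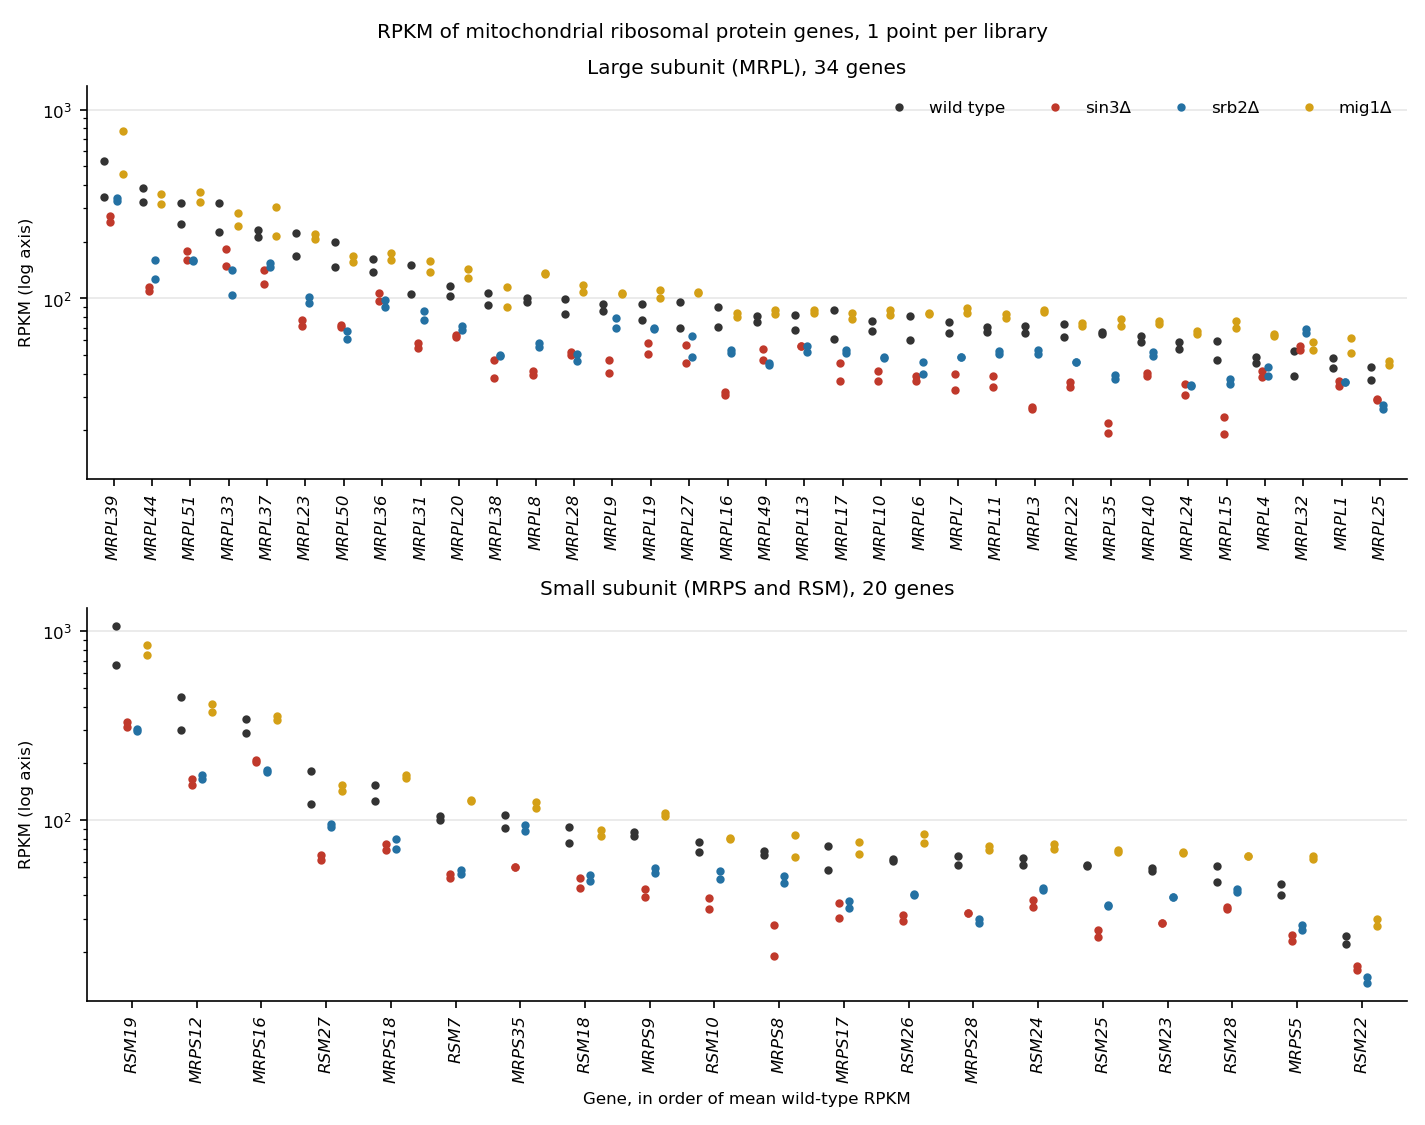
RPKM (log axis) of the 34 large subunit genes (top) and 20 small subunit genes (bottom) in each of the 8 libraries, in order of the wild-type mean, with 1 point per library and a colour per strain. The *sin3∆* and *srb2∆* points lie below the wild type for nearly every gene, the exceptions being *MRPL32* in both strains and *MRPS35* in *srb2∆*, and the *mig1∆* points lie near or above it.

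Nearly the whole set was lower in *sin3∆*. Of 54 members, 53 were lower than in the wild type at an adjusted p of at most 0.05 and 0 were higher, where 35.6% of the 5628 genes tested were lower (limma on log2(RPKM + 1), Benjamini-Hochberg over all genes tested). By the stricter rule, which also asked for a change of at least 2-fold, 17 members were lower, 31.5% of the set against 12.2% of all genes. The libraries did not overlap, with *sin3∆* below, for 53 members (42.0% of all genes), and with *sin3∆* above for 1, *MRPL32* (44.0%). The median log2 fold change was -0.81 over the large subunit and -0.93 over the small subunit, against 0.01 over all genes. All 20 small subunit genes and 33 of 34 large subunit genes were called lower, 6 and 11 of them at 2-fold.

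In the large subunit, the largest changes in *sin3∆* were in *MRPL44*, *MRPL35* and *MRPL23*. *MRPL44* went from 324 and 386 RPKM in the wild type to 116 and 110 in *sin3∆*, a log2 fold change of -1.64 ± 0.13 (SE; limma adjusted p 2.4e-05). *MRPL35* (mL38), at 65.1 and 66.5 RPKM, went to 19.5 and 21.8, a change of -1.63 ± 0.08 (limma adjusted p 2.4e-06). *MRPL23* (uL13) changed by -1.37 ± 0.13. The libraries of the 2 strains lay far apart for all 3 genes.

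In the small subunit, *MRPS8* (uS8, which binds the central domain of the small ribosomal RNA in bacteria) went from 65.7 and 68.4 RPKM to 27.9 and 19.2, a log2 fold change of -1.49 ± 0.18 (limma adjusted p 0.000206). *RSM19* changed by -1.39 ± 0.20, and *RSM27* (mS33) by -1.22 ± 0.17. The smallest falls were in *RSM22* (-0.47 ± 0.09), *RSM28* (-0.57 ± 0.10) and *MRPS16* (-0.62 ± 0.09), all 3 called lower without reaching 2-fold. In the large subunit they were in *MRPL4* (uL29), at -0.24 ± 0.08 (limma adjusted p 0.0293), and *MRPL1*, at -0.35 ± 0.11 (limma adjusted p 0.0183). These calls were made in 12 and 13 of 16 alternatives, a test against 1.5-fold left aside. The call of *MRPL4* was lost, among others, without wild-type replicate 2 or either *sin3∆* replicate (limma adjusted p 0.0532 to 0.154), and that of *MRPL1*, among others, without wild-type replicate 3 (0.085) or *sin3∆* replicate 1 (0.0935).

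Leaving aside a test against 1.5-fold, 48 of 54 members were called lower in every one of 16 alternatives, and 53 had a log2 fold change below 0 in all of them. The test against 1.5-fold, which asks for more than a difference from 0, called 28 members. The number past 2-fold was 42 when each library was scaled to the same sum, which moved the median of all genes by -0.30. The share of all genes called is not given for these or the later alternatives. Such counts therefore show only how the member calls move.

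Most of the set was also lower in *srb2∆*, set against the same wild-type libraries, which the 2 comparisons share. Of 54 members, 49 were lower at an adjusted p of at most 0.05 (36.3% of all genes tested) and 1 was higher (35.5%). By the 2-fold rule 6 were lower, 11.1% of the set against 14.9% of all genes, so the share past 2-fold was below that of all genes. The libraries did not overlap, with *srb2∆* below, for 52 members (42.6% of all genes), and with *srb2∆* above for 1 (42.1%). The median log2 fold change was -0.56 over the large subunit, with 31 of 34 called lower, and -0.67 over the small subunit, with 18 of 20, against -0.01 over all genes.

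The 6 members past 2-fold were *MRPL50*, *MRPL44*, *MRPL33*, *RSM19*, *MRPS12* and *MRPS28*. *MRPL50* (bL9) went from 147 and 198 RPKM in the wild type to 67.3 and 61.2 in *srb2∆*, a log2 fold change of -1.40 ± 0.13 (limma adjusted p 5.78e-05). *RSM19* changed by -1.48 ± 0.20, *MRPL44* by -1.31 ± 0.13, *MRPL33* (uL30) by -1.14 ± 0.21 and *MRPS12* by -1.11 ± 0.17. *MRPS28* (uS15) was the only one of the 6 longer than 500 bp, and changed by -1.04 ± 0.08, from 58.2 and 64.6 to 29.8 and 28.7 RPKM. The median in *srb2∆* was -0.79 over members under 500 bp and -0.54 over the longer ones. In *sin3∆* these medians were -0.83 and -0.90. Over the members, Spearman's rho of log2 fold change with coding length was 0.46 in *srb2∆*, 0.45 in *mig1∆* and 0.10 in *sin3∆*.

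The 4 members not called in *srb2∆* were *MRPL39*, *MRPL4*, *MRPS8* and *MRPS35*. *MRPS35* (mS45) lay at 91.2 and 106 RPKM in the wild type and 94.0 and 87.9 in *srb2∆*, and these libraries overlapped (-0.11 ± 0.09, limma adjusted p 0.291). In *MRPL39* the 2 wild-type libraries were 533 and 345 RPKM, and *srb2∆*, at 340 and 329, was below both without passing the test (limma adjusted p 0.27). *MRPL4* and *MRPS8* had adjusted p-values of 0.0632 and 0.056 in limma. *MRPL40* (uL24, -0.26 ± 0.07) and *RSM28* (-0.28 ± 0.10) were among the called members that changed little, and both calls were lost without *srb2∆* replicate 3 (limma adjusted p 0.0913 and 0.127).

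Leaving aside the test against 1.5-fold, which called 12 members, 40 were called lower in every one of 17 alternatives. The count past 2-fold depended on the wild-type libraries: it was 12 without replicate 2 and 3 without replicate 3, and 16 when libraries were scaled to the same sum. A fit with the replicate number as a block gave 6 lower at 2-fold and 43 lower at any fold.

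**Figure D3:**
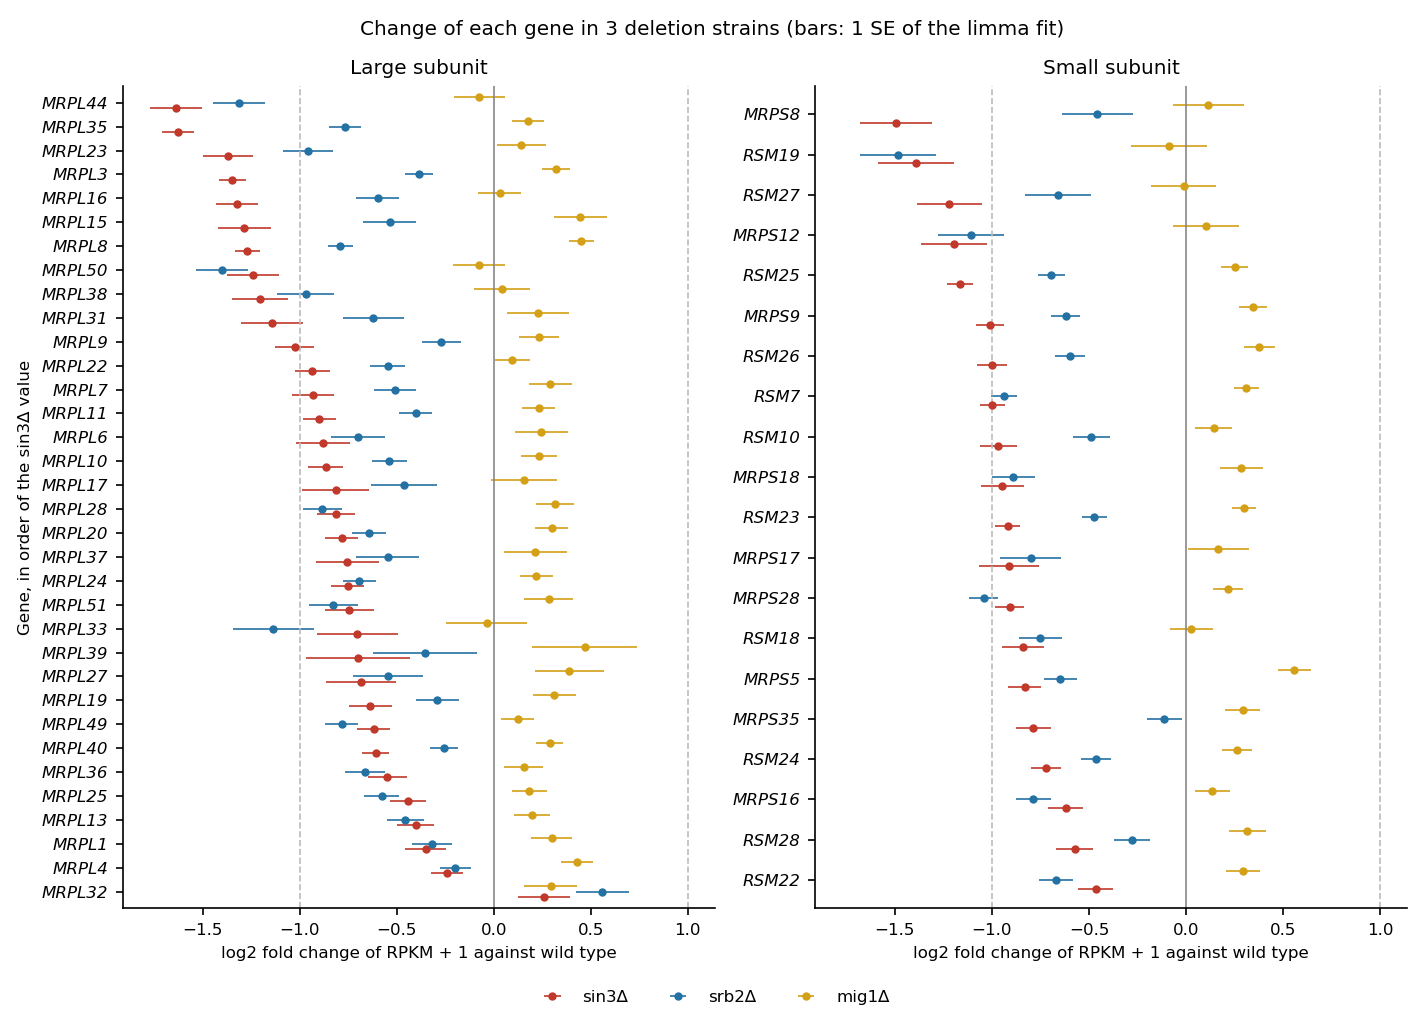
Log2 fold change of RPKM + 1 against the wild type for each large (left) and small (right) subunit gene in *sin3∆*, *srb2∆* and *mig1∆*, in order of the *sin3∆* value, with bars of 1 SE from limma and dashed lines at 2-fold. All comparisons use the same 2 wild-type libraries. All points of *sin3∆* and *srb2∆* lie below 0 except those of *MRPL32*, and no point of *mig1∆* reaches 2-fold.

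*MRPL32* (YCR003W, chrIII:118620-119171), the bL32 protein, whose maturation by the m-AAA protease precedes assembly of the mitochondrial ribosome in yeast, stood apart. It lay at 39.1 and 53.0 RPKM in the wild type, with 56.0 and 53.4 for *sin3∆*, 65.9 and 69.3 for *srb2∆*, and 58.7 and 53.4 for *mig1∆*. It was the only member above the wild type in *srb2∆* (0.56 ± 0.14, limma adjusted p 0.00701), and in *sin3∆* it had a log2 fold change of 0.26 ± 0.14 that did not pass (limma adjusted p 0.118). Without wild-type replicate 3 it was called higher in *sin3∆* as well (0.47, limma adjusted p 0.00279), and without wild-type replicate 2 the values were 0.045 in *sin3∆* and 0.34 in *srb2∆* (limma adjusted p 0.653 and 0.0109). Its place among the 54 members went from 50 in the wild type to 18 in *sin3∆* and 18 in *srb2∆*, with 1 the highest. A place also depends on the other members, most of which were lower in both strains.

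*MRPL32* is the only member on chromosome III, and the genes of that chromosome were higher in both strains. Over 150 genes of chromosome III tested, the median log2 fold change was 0.91 in *sin3∆*, with 115 called higher (76.7%), and 0.74 in *srb2∆*, with 92 called higher (61.3%). It was -0.0025 in *mig1∆*, with 8 called higher (5.33%). The medians of the other 15 chromosomes lay between -0.21 and 0.19 in *sin3∆* and between -0.30 and 0.08 in *srb2∆*. Against the wild-type mean, the chromosome III median was 0.88 and 0.93 in the 2 *sin3∆* libraries, 0.73 and 0.75 in the 2 *srb2∆* libraries, and 0.01 and 0.02 in the 2 *mig1∆* libraries. In windows of 50000 bp with at least 20 genes, it ranged from 0.70 to 1.24 in *sin3∆* and from 0.03 to 1.04 in *srb2∆*. The number of copies of chromosome III in these strains was not measured in the files used here.

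Set against the genes of its own chromosome, *MRPL32* was 0.65 log2 units below the median in *sin3∆* and 0.18 below in *srb2∆*. When the genes of every chromosome were centred in each library, a setting added once the data had been seen, its log2 fold change was -0.69 ± 0.14 in *sin3∆* (limma adjusted p 0.003) and -0.15 ± 0.14 in *srb2∆* (limma adjusted p 0.347). On that scale 52 members were called lower in *sin3∆* and 48 in *srb2∆*, with 0 higher in either. Whether the level of the chromosome accounts for the value of *MRPL32* was not tested.

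A list of 21 mitochondrial ribosomal proteins with other names (such as MRP and IMG) was not used to choose the members. This list, too, was drawn up with earlier results of these data known. It gave 18 lower and 0 higher in *sin3∆* and 18 lower and 0 higher in *srb2∆* at an adjusted p of at most 0.05. Past 2-fold, 7 and 4 were lower. Over all genes, 35.6% and 36.3% were lower, and 12.2% and 14.9% were lower at 2-fold, to which the 4 of 21 in *srb2∆* is near. Its medians were -0.84 in *sin3∆*, -0.64 in *srb2∆* and 0.19 in *mig1∆*. The list has 2 genes on chromosome III, *IMG1* and *IMG2*, which were singled out after their values were seen. Neither passed the test in *sin3∆* (0.19 and -0.09, limma adjusted p 0.0602 and 0.52) or in *srb2∆* (-0.07 and 0.06, limma adjusted p 0.459 and 0.681). With the chromosomes centred, *IMG1* was at -0.75 ± 0.08 in *sin3∆* and -0.78 ± 0.08 in *srb2∆*, and *IMG2* at -1.04 ± 0.13 and -0.65 ± 0.13. Over both lists, 71 of 72 genes outside chromosome III were called lower in *sin3∆* and 67 of 72 in *srb2∆*, and all 75 lay below the median of their own chromosome in both strains.

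**Figure D4:**
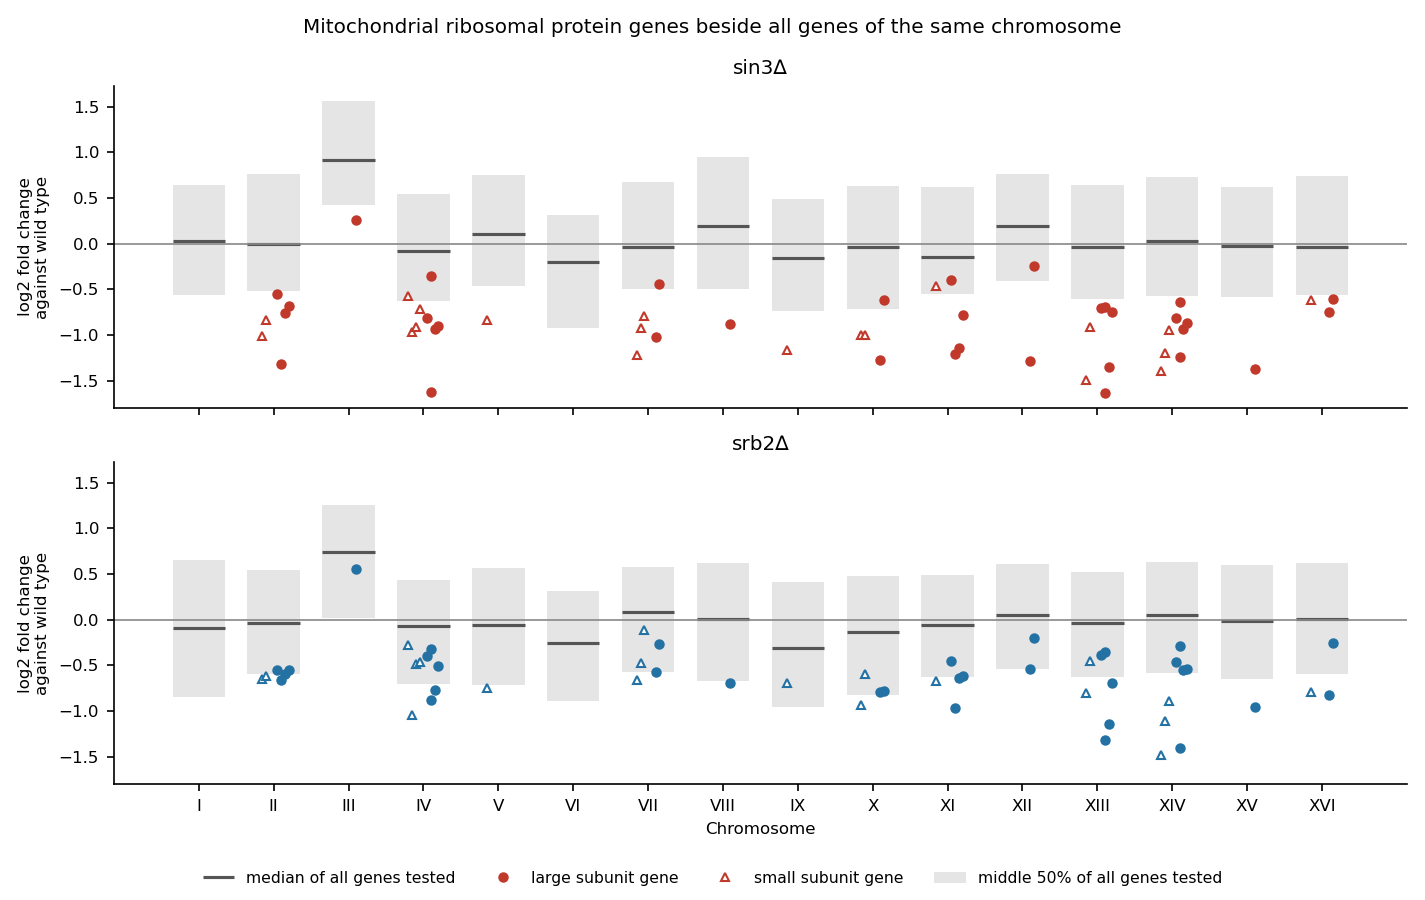
Log2 fold change against the wild type in *sin3∆* (top) and *srb2∆* (bottom) by chromosome, with a grey box for the middle 50% of all genes tested, a line for their median, filled circles for large subunit genes and open triangles for small subunit genes. The box of chromosome III is raised to a median of 0.91 in *sin3∆* and 0.74 in *srb2∆*, and its single member, *MRPL32*, is the only one above 0.

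In *mig1∆* few members passed the test. None passed the 2-fold rule in either direction (0.995% of all genes were higher and 0.657% lower), and 9 were higher at any fold, against 7.41% of all genes, with 0 lower (4.71%). The 9 were 4 of the large and 5 of the small subunit, all of at least 500 bp. An unadjusted limma p under 0.05 was found in 25 members. Outside the set, it was found in 235 of 766 genes with TGTANATA after the stop codon and in 1361 of 4756 without it. The libraries did not overlap, with *mig1∆* above, for 35 members (28.4% of all genes), and with *mig1∆* below for 0 (23.4%). The median log2 fold change was 0.23 over the large and 0.26 over the small subunit, against 0.03 over all genes, and 5 members were below 0.

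The largest of these was *MRPS5*, at 40.4 and 45.7 RPKM in the wild type and 62.6 and 64.9 in *mig1∆* (0.56 ± 0.09, limma adjusted p 0.00851). *MRPL4* was at 49.1 and 45.4 in the wild type and 63.6 and 64.5 in *mig1∆* (0.43 ± 0.08, limma adjusted p 0.0179), a call lost in 5 of 15 alternatives besides the test against 1.5-fold. Both genes had all *mig1∆* libraries above the wild type. The count of 9 was not stable: it was 0 when only these 2 strains were fitted, 3 with libraries scaled to the same sum, 17 without wild-type replicate 3, 3 without *mig1∆* replicate 1 and 1 without *mig1∆* replicate 2. Without wild-type replicate 2, 8 were higher and 2 lower.

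The difference between *sin3∆* and *srb2∆* was tested directly, by comparing these 2 strains with each other. The spread was still estimated from all 8 libraries, those of the wild type among them. Of 54 members, 24 were lower in *sin3∆* than in *srb2∆* (27.9% of all genes) and 0 were higher (30.9%), 14 of the large and 10 of the small subunit. The libraries did not overlap for 34 members with *sin3∆* below (41.1% of all genes) and for 8 with *sin3∆* above (42.9%). By the 2-fold rule only *MRPS8* was lower (2.95% of all genes), at 27.9 and 19.2 RPKM in *sin3∆* and 46.6 and 50.7 in *srb2∆* (-1.04 ± 0.18, limma adjusted p 0.00219). It did not reach 2-fold with a pseudocount of 5, without *sin3∆* replicate 2 or without *srb2∆* replicate 3, and did not pass a test against 1.5-fold (limma adjusted p 0.114). The medians were -0.31 over the large and -0.22 over the small subunit, against 0.01 over all genes. By length, 19 of 34 members of at least 500 bp and 5 of 20 shorter members were called lower, with medians of -0.34 and -0.11.

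*MRPL35* (-0.86 ± 0.08, limma adjusted p 0.000113) and *MRPS35* (-0.68 ± 0.09, limma adjusted p 0.000551) were among those lower in *sin3∆*. *RSM19*, at 0.09 ± 0.20, and *MRPL50*, at 0.16 ± 0.13, were not called different between the 2 strains. By family, 12 of 24 members shared by all ribosomes, 11 of 20 mitochondrial members and 1 of 9 members shared with bacteria were lower in *sin3∆* than in *srb2∆*. Over all genes tested, 27.9% were lower. The families are small and were not compared by a test. The medians of these families against the wild type were -0.93, -0.81 and -0.70 in *sin3∆* and -0.61, -0.56 and -0.75 in *srb2∆*.

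As a share of all summed RPKM, the members made up 0.721% and 0.787% in the wild type, with 0.310% and 0.302% for *sin3∆*, 0.373% and 0.379% for *srb2∆*, and 0.833% and 0.847% for *mig1∆*. Both *sin3∆* and *srb2∆* libraries lay below both wild-type libraries. The mean share of the large subunit was 0.427 times the wild type in *sin3∆* and 0.535 times in *srb2∆*, and that of the small subunit 0.376 and 0.449 times. In *mig1∆* the 2 shares were 1.15 and 1.07 times the wild type. A share also depends on what other genes take of the sum. Cytosolic ribosomal proteins took 19.3% and 22.5% of it (wild type), 41.1% and 41.1% (*sin3∆*), 42.8% and 42.0% (*srb2∆*), and 24.1% and 25.9% (*mig1∆*). Before division by the library sum, mean member RPKM totals were 0.510 (*sin3∆*), 0.580 (*srb2∆*) and 1.12 (*mig1∆*) times the wild-type mean. The ratios of the member share were 0.406, 0.499 and 1.11. With 2 libraries against 2, a two-sided exact permutation test cannot give a p below 0.333, which the comparisons of *sin3∆* and *srb2∆* reached and which passes no threshold.

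The large subunit summed to 1.43 ± 0.155 times the small subunit in the wild type (SD, n = 2), 1.61 ± 0.00805 times in *sin3∆*, 1.69 ± 0.0217 times in *srb2∆*, and 1.53 ± 0.0424 times in *mig1∆*. Over members of at least 500 bp, which leave out *RSM19*, these ratios were 1.47 and 1.54, 1.62 and 1.60, 1.65 and 1.67, and 1.45 and 1.48. Over these longer members the SD of log2 RPKM within a library was 0.48 to 0.55 in all 8 libraries.

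The 2 kinds of ribosome moved in opposite directions in *sin3∆* and *srb2∆*. Of 132 cytosolic ribosomal protein genes tested, 130 were higher in each strain at an adjusted p of at most 0.05. Over all genes, 38.4% (*sin3∆*) and 35.5% (*srb2∆*) were higher. At 2-fold, 110 and 114 were higher (17.7% and 15.0% of all genes), and the medians were 1.36 and 1.31. In *mig1∆* 32 were higher (7.41% of all genes), none at 2-fold (0.995%), with a median of 0.29. The summed cytosolic over mitochondrial ribosomal protein RPKM was 26.7 and 28.6 in the wild type, with 133 and 136 for *sin3∆*, 115 and 111 for *srb2∆*, and 28.9 and 30.6 for *mig1∆*. Many cytosolic ribosomal proteins have near-identical gene pairs whose reads the counting could split, which a sum over the list avoids. Of 52 genes for assembly of the cytosolic ribosome, 50 were higher in *sin3∆* and 51 in *srb2∆*.

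General stress genes fell in the same strains. The sum over 15 general stress genes was 10029 and 10333 RPKM in the wild type, with 711 and 898 for *sin3∆*, 556 and 585 for *srb2∆*, and 5225 and 5245 for *mig1∆*. At an adjusted p of at most 0.05, 14 of 15 were lower in *sin3∆* (35.6% of all genes) and 14 in *srb2∆* (36.3%). Their part, and that of the lower **a**-cell marker sum in *sin3∆*, in the values of the members was not tested.

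**Figure D5:**
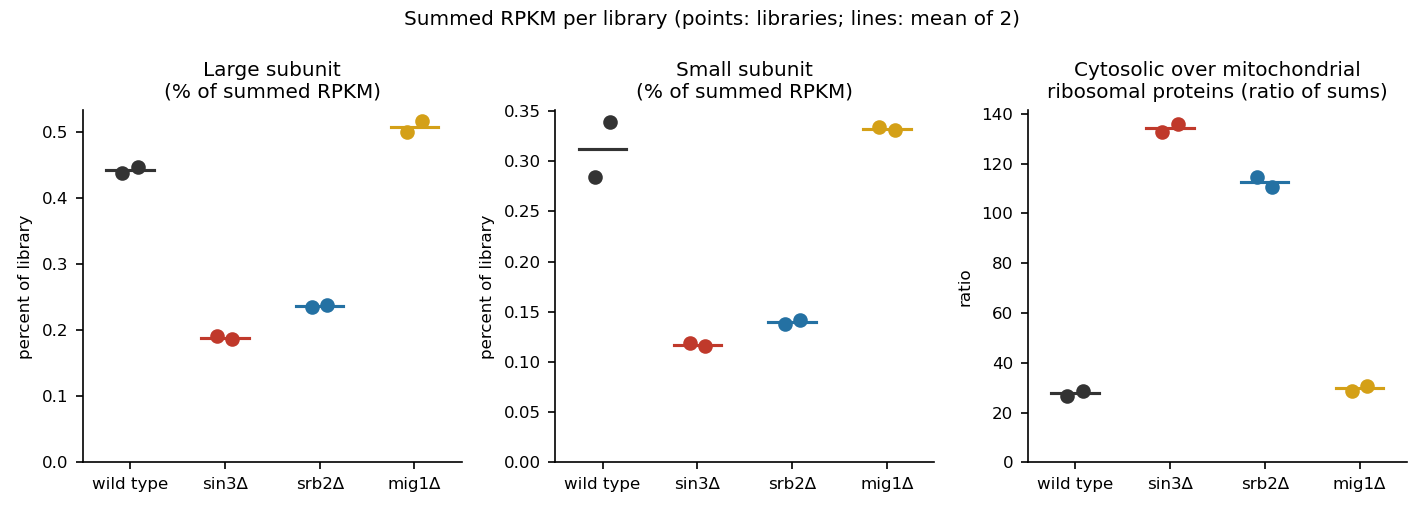
Share of a library's summed RPKM (percent) taken by the large and by the small subunit genes, and the ratio of summed cytosolic to summed mitochondrial ribosomal protein RPKM, with a point per library and a line at the mean of 2. The large subunit share is 0.187% to 0.191% in *sin3∆* and 0.437% to 0.447% in the wild type, and the ratio is 133 to 136 in *sin3∆* and 26.7 to 28.6 in the wild type.

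Counts for other genes that serve mitochondria are read against the shares of all genes tested, which were 35.6% lower and 38.4% higher in *sin3∆* and 36.3% lower and 35.5% higher in *srb2∆*. Of 9 translation factors, 6 were lower and 2 higher in *sin3∆*, and 8 lower and 1 higher in *srb2∆*. Both that rose in *sin3∆*, singled out by the size of their change, were *MEF2*, a factor for ribosome recycling, at 8.37 and 8.94 RPKM in the wild type and 24.6 and 25.2 in *sin3∆*, and *FMT1*, the formyltransferase for initiator tRNA, at 3.86 and 4.86 and 11.9 and 9.66 RPKM. *IFM1*, the initiation factor, was lower in both strains (-1.25 ± 0.14 and -0.86 ± 0.14). Of 13 mitochondrial tRNA synthetases, 11 were lower and 2 higher in *sin3∆*, and 12 lower in *srb2∆*. Of 15 activators of single mitochondrial messages, 10 were lower in each strain and none higher, and of 6 genes tested for assembly and RNA modification of the mitochondrial ribosome, 5 and 4 were lower.

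Of 32 nuclear genes of the respiratory chain tested, 28 were lower and 0 higher in *sin3∆*, and 22 lower and 0 higher in *srb2∆*. The log2 fold change was below 0 for 30 of them in *sin3∆* and 27 in *srb2∆*. It ran from -2.23 to 4.07 in *sin3∆* and from -4.20 to 4.13 in *srb2∆*, and the largest rises did not pass the test. Of 3 genes for membrane insertion of mitochondrial translation products, 2 were lower in *sin3∆* and 3 in *srb2∆*. Of 4 genes for transcription and upkeep of the mitochondrial genome, 2 were lower and 1 higher in each. In the list of 12 regulators, 7 were lower and 4 higher in *sin3∆*, and 6 lower and 3 higher in *srb2∆*. The shares of all genes beside these lists are again 35.6% lower and 38.4% higher in *sin3∆*, and 36.3% and 35.5% in *srb2∆*.

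*PUF3* itself, named after its values were seen, lay at 12.6 and 9.83 RPKM in the wild type, with 8.35 and 7.46 for *sin3∆*, 13.2 and 16.5 for *srb2∆*, and 22.5 and 17.7 for *mig1∆*. It was lower in *sin3∆* (-0.45 ± 0.17, limma adjusted p 0.0461) and was not called in *srb2∆* (0.38 ± 0.17, limma adjusted p 0.0847), and it was higher in *mig1∆* (0.79 ± 0.17, limma adjusted p 0.0282).

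Genes outside the set that carry TGTAAATA after the stop codon, 223 of them tested, had medians of -0.45 in *sin3∆*, -0.60 in *srb2∆* and 0.13 in *mig1∆*. With the wider form TGTANATA, 766 genes outside the set had medians of -0.18, -0.21 and 0.06, with 341 lower (44.5%) and 229 higher in *sin3∆*. The 4756 genes tested without TGTANATA had medians of 0.05, 0.03 and 0.02. Only the 54 members were left out of these groups. The 21 other mitochondrial ribosomal proteins and the other genes that serve mitochondria were not removed. Of the 223, 128 were lower and 34 higher in *sin3∆*, and 143 lower and 30 higher in *srb2∆*. Within the set, the 29 members with TGTAAATA and the 25 without had medians of -0.88 and -0.90 in *sin3∆* and of -0.62 and -0.62 in *srb2∆*. All of these 25 except *RSM22* carry another form of TGTANATA. These medians therefore compare forms of the element, and cannot show whether members with and without an element differ.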

How the data were processed

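RNA of 4 yeast strains was sequenced in 8 libraries with 150 bp reads, and the authors deposited 1 table of gene-level RPKM. Per the labels and the study's methods, Bowtie2 and RSEM were used with the R64 genome, and DESeq2 for the authors' own comparisons, whose results are not used. The deposited RPKM had already been scaled between libraries by the authors. The library sums have a geometric mean of 999854, which TPM rescaled between libraries would also give, so the unit is stated as labelled. Of 6103 genes (3 of 6106 lines were empty), 5977 matched R64 by name, and 0 columns belonged to other samples.

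Here, the 5628 genes reaching 1 RPKM in 2 or more libraries were tested on log2(RPKM + 1) with limma 3.58.1 in R 4.3.3, with all 4 strains in 1 fit, a trended empirical Bayes variance and Benjamini-Hochberg adjustment over all genes of a comparison. This scale understates changes of low genes. Calls used an adjusted p of at most 0.05, alone or with a 2-fold change. The script was tested on simulated data. Sums and shares were compared by exact permutation tests (scipy 1.17.1). Depth was estimated by multiplying low values by coding length less 250 bp. Of 51 to 87 low values per library, 66.7% to 81.8% fell within 0.08 of a whole number of steps. The step of each library and the 250 bp were chosen to make this share largest. The 16% due to chance for a step fixed beforehand is therefore no fair comparison, and the estimated depth was not tested. Sequences are from NCBI RefSeq R64, and copies were sought with BLAST+ 2.17.0.

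The members and gene lists were chosen with earlier results of these data known. Genes named are, per subunit, the 3 highest and 3 lowest in the wild type, the 3 largest and 3 smallest changes in *sin3∆* and *srb2∆*, those past 2-fold in the other comparisons, those with opposite signs, and the deleted genes, with a few of the largest from each list. Others are named where the text says so, or as the members of a small count. Alternatives were other pseudocounts, filters, scalings and variance models, a test against 1.5-fold, a replicate block and leaving out each library. The alternatives added after the data were seen were *mig1∆* in place of the wild type, members of at least 500 bp, the longer Puf3 element and centred chromosomes. Protein sequences were not used here.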

Additional observations from a re-analysis of the deposited data

How the results depend on the processing

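The direction of the subunit medians was kept under every alternative run in all 4 comparisons, while several counts of calls moved by more than 1.5 times. The counts below carry no share of all genes called under the same setting, so they show only how the member calls move. With each library scaled to the same sum, which moved the median of all genes by -0.30 in *sin3∆* and -0.22 in *srb2∆*, 42 members were lower at 2-fold in *sin3∆*, 16 in *srb2∆* and 2 in *sin3∆* against *srb2∆*, and 3 were higher in *mig1∆*. The medians were then -1.14 (large) and -1.26 (small) in *sin3∆*, -0.78 and -0.88 in *srb2∆*, and -0.33 over the small subunit in *sin3∆* against *srb2∆*. A test against 1.5-fold, which counts members beyond that fold and not those past 2-fold, called 28 in *sin3∆*, 12 in *srb2∆* and 2 in *sin3∆* against *srb2∆*. With *mig1∆* as the control, a setting added once the data had been seen, 36 were lower at 2-fold in *sin3∆* and 14 in *srb2∆*, 0 were higher in *srb2∆*, and the medians were -1.09 and -1.21 in *sin3∆* and -0.82 and -0.96 in *srb2∆*. With the chromosomes centred, 0 were higher in *srb2∆*. In *sin3∆* against *srb2∆*, a pseudocount of 5 left 0 at 2-fold, quantile normalization gave 2, and a fit of only these strains gave 1 higher. A fit of *mig1∆* and the wild type alone gave 0 higher.

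*MRPL32* changed sign in *sin3∆*, to -0.067 at the same sum, -0.034 against *mig1∆* and -0.69 with chromosomes centred, and in *srb2∆* to -0.15 with chromosomes centred. The share ratios under quantile normalization were 0.533, 0.63 and 1.18 for the large subunit in *sin3∆*, *srb2∆* and *mig1∆*, 0.456 and 0.521 for the small subunit in *sin3∆* and *srb2∆*, and 3.12, 2.8 and 1.001 for cytosolic over mitochondrial. The causes of these shifts were not tested.

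Leaving out 1 library at a time gave 15 to 24 members lower at 2-fold in *sin3∆* and 0 to 1 higher, with small subunit medians of -0.98 to -0.86. In *srb2∆* it gave 3 to 12 at 2-fold, and medians of -0.72 to -0.46 (large) and -0.74 to -0.60 (small). In *mig1∆* it gave 1 to 17 higher and 0 to 2 lower, with small subunit medians of 0.16 to 0.30, and in *sin3∆* against *srb2∆* 0 to 1 at 2-fold. The small subunit share ratio was 0.345 to 0.412 in *sin3∆*, 0.412 to 0.492 in *srb2∆* and 0.979 to 1.17 in *mig1∆*, below 1 without wild-type replicate 2. Where this left a strain with 1 library, that library was assumed to vary like the other strains.

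The wild type and *srb2∆* share replicate numbers, but the deviations of same-numbered libraries correlated at only 0.0614, so the numbers were not taken as pairs. With the replicate number as a block, 6 members were lower at 2-fold, 43 at any fold and 1 higher in *srb2∆*. The other deletion strains share fewer than 2 numbers with the wild type. Members under 500 bp are the least precise, because few fragments fit them.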
